A study of Mus musculus with 6 samples.

Results

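In thioglycollate-elicited mouse macrophages, 5650 PU.1 regions on the autosomes were also occupied by C/EBPβ yet lay outside every called region of histone H3 lysine 9 acetylation (H3K9Ace). They were chosen by measured lists: an autosomal region of the PU.1 list had to overlap a C/EBPβ region by at least 1 bp and no macrophage H3K9Ace region. They made up 12.4% of the 45485 autosomal PU.1 regions and 43.2% of the 13080 that carried C/EBPβ, and are called unacetylated both-factor sites here. The presence of PU.1 and C/EBPβ and the lack of macrophage H3K9Ace at these sites are therefore the rule itself, and no finding. Unacetylated means only that no region was called in 1 library of unknown depth.

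The macrophage libraries for PU.1, C/EBPβ, PPARγ and H3K9Ace came from male C57BL/6 mice, whose peritoneal cells were taken 3 days after injection of 1 ml of 3% thioglycollate and purified by 24 h of adherence, with cells of at least 4 animals pooled per sequencing run. The age of the mice is not given in the sources used here. The adipocyte libraries for PPARγ and H3K9Ace came from 3T3-L1 preadipocytes, an established mouse line, after differentiation in culture. All 6 groups hold 1 library each and no genetic change is named for any of them, so there are no replicates: each test below runs over regions of these lists, treats neighbouring regions as independent, and compares lists rather than replicated cell populations. Intervals cover counting error only.

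PU.1 is an ETS-family transcription factor needed for the myeloid and B-cell lineages, and in macrophages it marks a large part of the enhancers that set cell identity. C/EBPβ is a basic leucine-zipper factor that often binds beside PU.1 in macrophages and also acts early in fat-cell differentiation. PPARγ is a nuclear receptor that drives adipocyte differentiation and is also active in macrophages. H3K9Ace is laid down by acetyltransferases that transcription factors and their coactivators bring to active promoters and enhancers.

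Comparisons were made with the classes that differ from these sites in a single criterion. The first holds 7430 acetylated both-factor sites, PU.1 regions with C/EBPβ that overlapped macrophage H3K9Ace. The second holds 21135 unacetylated PU.1-alone sites, without C/EBPβ and without macrophage H3K9Ace. The share of both-factor sites that lacked H3K9Ace ranged over the 19 autosomes from 36.5% on chromosome 19 to 51.4% on chromosome 18, with a median of 43.3%, so no single chromosome supplied the class. The number of unacetylated both-factor sites per chromosome ran from 179 to 476.

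The border of the rule fell among similar sites. Of the unacetylated both-factor sites, 249 had an acetylated edge at most 100 bp away, and 2 abutted one with no base between. On the other side, 303 acetylated both-factor sites had at most 100 acetylated bases. Longer-list PPARγ lay at 30.1% of the former and 30.4% of the latter, and adipocyte H3K9Ace at 26.9% and 25.4%. These values on either side of the threshold lay within each other's 95% intervals. Sites acetylated over the whole PU.1 region numbered 5966, with longer-list PPARγ at 31.2% and adipocyte H3K9Ace at 50.8%. In 126 of the unacetylated sites the C/EBPβ region, though not the PU.1 region, reached into an acetylated region.

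Macrophage PPARγ was found at unacetylated both-factor sites less often than at acetylated ones, but several times more often than at unacetylated PU.1-alone sites. In the final macrophage PPARγ list it lay at 262 of 5650 sites, 4.64% (95% Wilson interval 4.12 to 5.22), where 2.83% of all autosomal PU.1 regions had it. The acetylated both-factor sites had it in 660 of 7430 cases, 8.88% (8.26 to 9.55), and the unacetylated PU.1-alone sites in 177 of 21135, 0.837% (0.723 to 0.970). The share at the unacetylated both-factor sites thus stood between those of the comparison classes, with no overlap of the intervals. The odds ratio was 0.499 against acetylated both-factor sites (95% interval 0.429 to 0.579, adjusted p = 1.17e-21 by a 2-sided Fisher's exact test). Against unacetylated PU.1-alone sites it was 5.76 (4.73 to 7.02, adjusted p = 7.31e-70 by Fisher's exact test). Both differences had the same direction on 19 of 19 autosomes. Unacetylated both-factor sites are wider than PU.1-alone sites, and within quartiles of PU.1 region width the latter ratio was 3.47 (2.83 to 4.25).

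The longer macrophage PPARγ list, which contains weaker regions, gave the same order. It overlapped 1115 unacetylated both-factor sites, 19.7% (18.7 to 20.8), against 12.4% of all autosomal PU.1 regions. The share was 32.0% (30.9 to 33.0) at acetylated both-factor sites and 4.56% (4.28 to 4.85) at unacetylated PU.1-alone sites. The odds ratios were 0.523 (0.482 to 0.568, adjusted p = 4.24e-56 by Fisher's exact test) and 5.15 (4.69 to 5.65, adjusted p = 3.9e-256 by Fisher's exact test). PPARγ regions at both-factor sites without H3K9Ace amounted to 13.4% of the autosomal final list (257 of 1924) and 6.16% of the longer list (1117 of 18128).

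**Figure D1:**
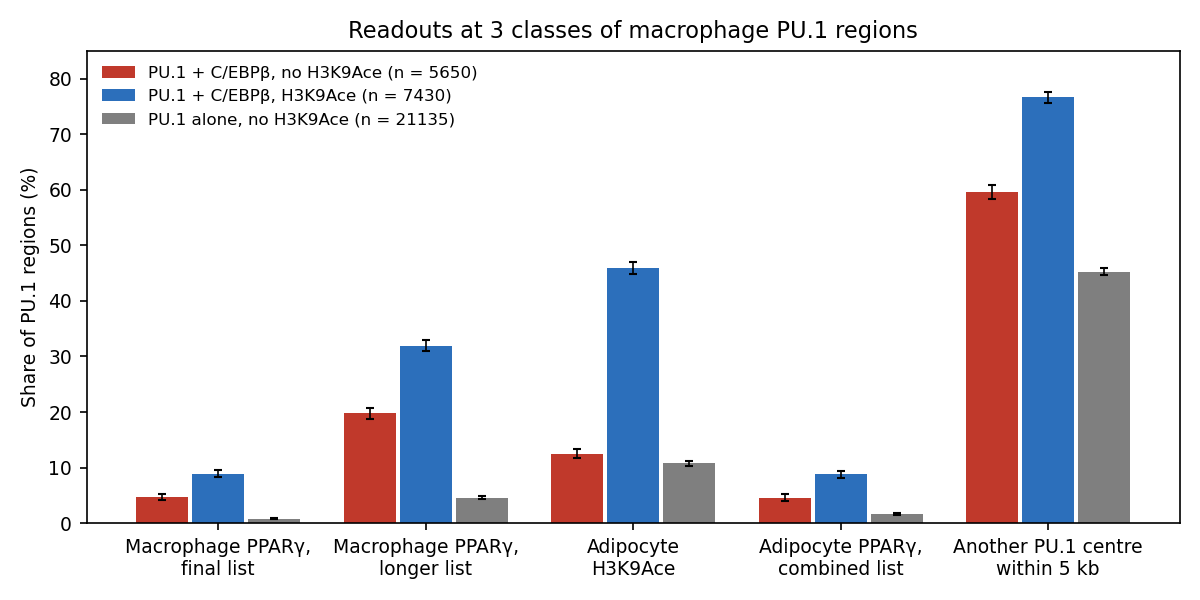
Share of PU.1 regions (%) with each readout in unacetylated both-factor sites (red), acetylated both-factor sites (blue) and unacetylated PU.1-alone sites (grey); bars are shares and error bars 95% Wilson intervals. The red bar lies between the blue and grey bars for macrophage PPARγ (4.64% in the final list, 19.7% in the longer list), and close to the grey bar for adipocyte H3K9Ace (12.5% against 10.8%).

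The strength of PPARγ regions could be described only within each list. The authors' fold per PPARγ region, whose control is not named, had a median of 6.46 (quartiles 5.74 and 8.55) at the 262 unacetylated both-factor sites of the final list. The median was 6.385 (5.50 and 8.25) at the 660 acetylated both-factor sites and 6.25 (5.50 and 7.42) at the 177 unacetylated PU.1-alone sites. The peak height had a median of 14 at both kinds of both-factor site and 13 at PU.1-alone sites. In every class the final-list regions began at a fold of 5 and a height of 9, so these medians compare only regions above those values, and no test was made. Of the sites with longer-list PPARγ, 23.5% (21.1 to 26.1) of the unacetylated both-factor sites were also in the final list, against 27.8% (26.0 to 29.6) of the acetylated ones and 18.4% (16.1 to 21.0) of the PU.1-alone sites.

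The unacetylated both-factor sites with the highest PPARγ fold were spread over 7 chromosomes and lay at varied distances from acetylated chromatin. The highest fold, 22.5, belonged to the PU.1 region on chromosome 2 at 29594218 to 29594422 (mm8), 0.068 kb from macrophage H3K9Ace. That region also lay in adipocyte H3K9Ace and in both adipocyte PPARγ lists. The second, on chromosome 5 at 141266773 to 141267061, had a fold of 21.9 and was 13.4 kb from macrophage and 183.7 kb from adipocyte H3K9Ace. The third, on chromosome 3 at 51297725 to 51297979, had a fold of 20.4, was 12.9 kb from macrophage H3K9Ace and carried adipocyte PPARγ of the combined list. A fold of 20.3 was given to the region on chromosome 10 at 66600277 to 66600595, 1.28 kb from acetylation. The region 125006747 to 125007032 of chromosome 6 had a fold of 18.7 and lay 0.097 kb from it. On chromosome 13, 52587821 to 52588256 had a fold of 17.8 at 0.044 kb. On chromosome 11, 70001296 to 70001741 had a fold of 17.4 at 3.71 kb. On chromosome 3, 84525726 to 84526260 had 14.8 at 0.576 kb. Of these 8 sites, 3 were in adipocyte H3K9Ace and in the final adipocyte PPARγ list. Which genes lie near them is not given, because no annotation of mm8 was used here.

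Many unacetylated both-factor sites lay close to acetylated chromatin without touching it. The distance from the PU.1 region to the nearest macrophage H3K9Ace edge had a median of 4.83 kb (quartiles 1.29 and 15.2 kb). It was at most 1 kb for 1214 sites (21.5%), at most 10 kb for 3713 (65.7%), and over 50 kb for 491. PU.1-alone sites without H3K9Ace were farther away, with a median of 7.52 kb (2.14 and 23.7 kb). An acetylated edge lay within 5 kb of 2866 unacetylated both-factor sites, 50.7% (49.4 to 52.0), and of 8594 PU.1-alone sites, 40.7% (40.0 to 41.3). The odds ratio was 1.50 (1.42 to 1.59, adjusted p = 1.78e-41 by Fisher's exact test), and the direction was the same on 19 of 19 autosomes. Both classes lack overlapping H3K9Ace by the rule, so this test concerns only how near the mark comes. Acetylated sites are at no distance by the rule and were not compared.

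**Figure D2:**
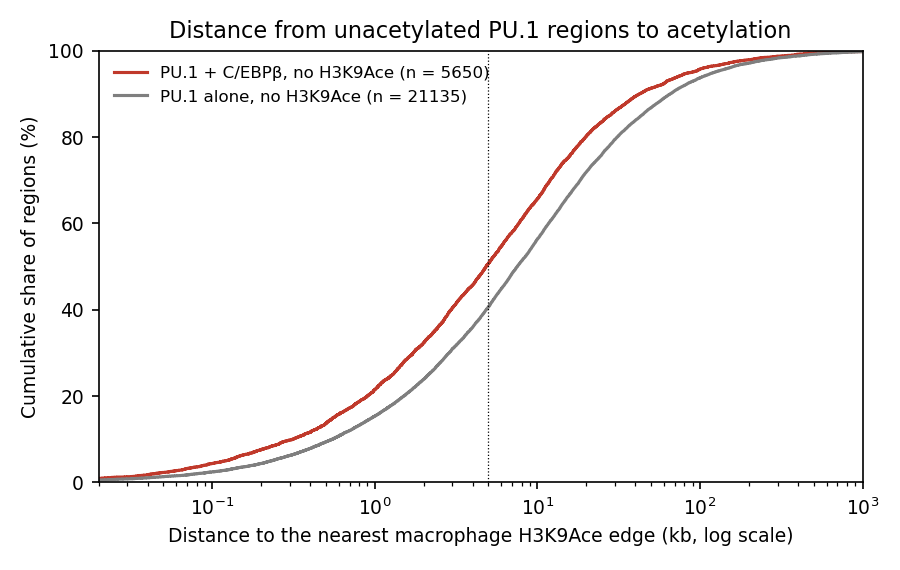
Cumulative share of regions (%) against the distance to the nearest macrophage H3K9Ace edge (kb, log axis) for unacetylated both-factor sites (red) and unacetylated PU.1-alone sites (grey); the dotted line marks 5 kb. The red curve lies above the grey one, with 50.7% against 40.7% of regions within 5 kb.

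Some of these sites sat in gaps between acetylated regions. A macrophage H3K9Ace region lay within 2 kb on both sides of 256 unacetylated both-factor sites, 4.53% (4.02 to 5.10), and the acetylated regions there were a median of 1775 bp apart. The same held for 615 PU.1-alone sites, 2.91% (2.69 to 3.15). PPARγ of the longer list was at 75 of the 256 gap sites with both factors (29.3%) and at 51 of the 615 with PU.1 alone (8.29%). Adipocyte H3K9Ace covered 29.7% and 31.7% of them. With a limit of 5 kb on each side, 704 unacetylated both-factor sites (12.5%) and 1940 PU.1-alone sites (9.18%) were flanked.

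The sites farthest from acetylation were in large stretches without the mark. A pair on chromosome 15, at 19802013 to 19802252 and 19802454 to 19802671, lay 5286 kb and 5285 kb from macrophage H3K9Ace and over 5411 kb from adipocyte H3K9Ace, with their centres 0.430 kb apart. Next came 29113047 to 29113371 of chromosome 4 (2675 kb), 12883650 to 12883868 of chromosome 5 (2360 kb) and 79782423 to 79782642 of chromosome 4 (1882 kb). At all 5 the PU.1 and C/EBPβ centres were at most 19.5 bp apart. None of the 5 carried PPARγ in the longer macrophage or the combined adipocyte list. Among all 491 sites from 50 kb on, 10.2% and 3.05% did, so 5 sites are too few to show a difference.

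Among unacetylated both-factor sites, longer-list macrophage PPARγ was rarer at greater distance from macrophage acetylation. The final macrophage list and the combined adipocyte list fell less steadily. They had 3.17% and 2.81% from 10 to 20 kb, but 4.47% and 4.94% from 20 to 50 kb. Longer-list PPARγ lay at 25.7% (23.4 to 28.3) of the 1212 sites less than 1 kb away, 22.7% (20.3 to 25.4) of the 1035 sites from 2 to 5 kb, 15.0% (12.7 to 17.6) of the 819 sites from 10 to 20 kb and 10.2% (7.81 to 13.2) of the 491 sites from 50 kb on. The PU.1-alone sites had 7.45%, 5.53%, 4.23% and 1.69% in the same bins, so the both-factor share was the higher in each. A common odds ratio over 7 distance bins, chosen after seeing the data, was 4.78 (4.36 to 5.25) for the longer list and 5.33 (4.39 to 6.48) for the final list, close to the ratios without bins.

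Adipocyte H3K9Ace covered few of the sites that lacked the mark in macrophages. It lay at 705 unacetylated both-factor sites, 12.5% (11.6 to 13.4), against 28.1% of all autosomal PU.1 regions. The acetylated both-factor sites had it in 3409 cases, 45.9% (44.8 to 47.0), and the unacetylated PU.1-alone sites in 2273, 10.8% (10.3 to 11.2). The odds ratio against acetylated both-factor sites was 0.168 (0.153 to 0.184), with a Fisher's exact p below the smallest number that double precision holds. Against PU.1-alone sites it was 1.18 (1.08 to 1.30, adjusted p = 0.000293 by Fisher's exact test), a difference of 1.72 percentage points with the same direction on 17 of 19 autosomes.

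That small difference was not detected at equal distance from macrophage acetylation. Within the 7 distance bins the common odds ratio against PU.1-alone sites was 1.01 (0.924 to 1.11, Mantel-Haenszel estimate, an interval that includes 1). Less than 1 kb from macrophage H3K9Ace, adipocyte H3K9Ace covered 21.9% (19.6 to 24.3) of the unacetylated both-factor sites and 25.1% (23.6 to 26.6) of the PU.1-alone sites. From 1 to 2 kb the order was the other way, with 21.0% (18.0 to 24.4) and 17.4% (15.7 to 19.2). From 50 kb on it covered 4.07% (2.65 to 6.21) and 3.34% (2.73 to 4.07). Whether the odds ratio differed between bins was not tested. Of the 705 unacetylated both-factor sites in adipocyte H3K9Ace, 518 (73.5%) had macrophage H3K9Ace within 5 kb, against 50.7% of the whole class. Adipocyte H3K9Ace was more frequent near macrophage H3K9Ace at PU.1-alone sites too, so this nearness is no trait of the class. The adipocyte regions at the 705 sites had a median width of 1800 bp, against 2100 bp at unacetylated PU.1-alone sites and 3500 bp at acetylated both-factor sites. The median over all autosomal adipocyte regions was 1000 bp. That value is not directly comparable, because wider regions are overlapped more easily and the widest overlapping region was taken per site.

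**Figure D3:**
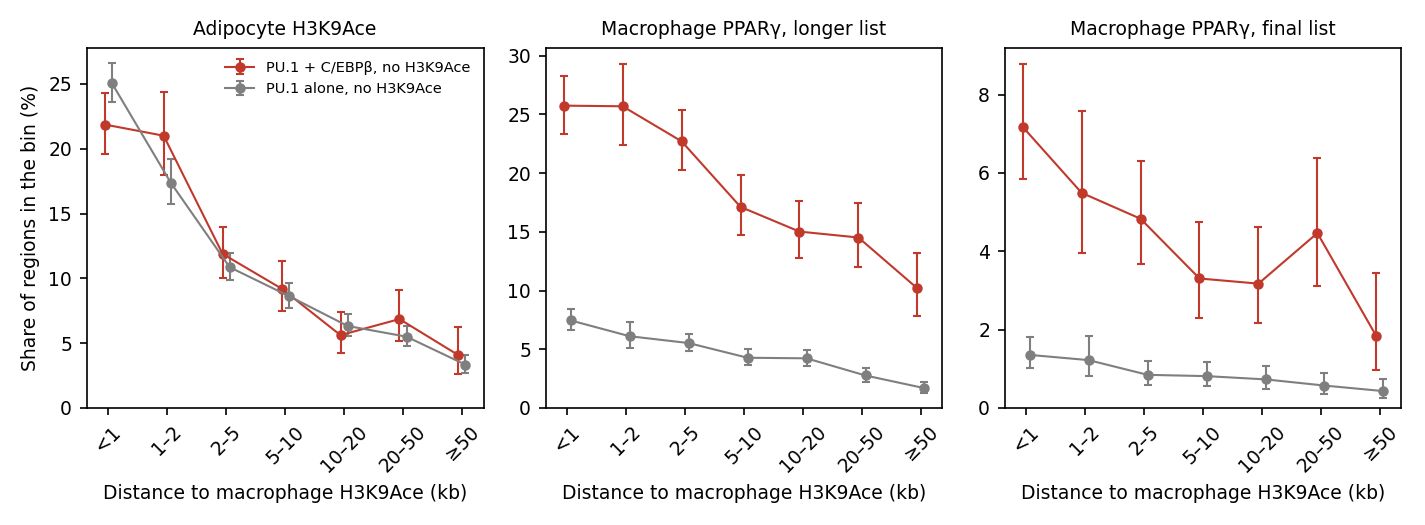
Share of regions (%) in adipocyte H3K9Ace and in both macrophage PPARγ lists, by distance to the nearest macrophage H3K9Ace edge (kb), for unacetylated both-factor sites (red) and unacetylated PU.1-alone sites (grey); points are shares and bars 95% Wilson intervals. For adipocyte H3K9Ace the order changes between bins (21.9% and 25.1% below 1 kb, 21.0% and 17.4% from 1 to 2 kb). The red PPARγ points lie above the grey ones in every bin.

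Adipocyte PPARγ lay at a small part of the unacetylated both-factor sites. In the combined adipocyte list, whose regions are wide (median 899 bp), it was at 259 of them, 4.58% (4.07 to 5.16), close to the 3.93% of all autosomal PU.1 regions. The share was 8.78% (8.15 to 9.44) at acetylated both-factor sites (odds ratio 0.499, 0.429 to 0.580, adjusted p = 2.34e-21 by Fisher's exact test). It was 1.57% (1.41 to 1.74) at unacetylated PU.1-alone sites (odds ratio 3.02, 2.55 to 3.57, adjusted p = 5.79e-36 by Fisher's exact test). The final adipocyte list held 60 of the sites, 1.06% (0.826 to 1.36), against 0.556% of all autosomal PU.1 regions, with odds ratios of 0.701 and 6.47 (adjusted p = 0.0298 and 1.67e-18 by Fisher's exact test). Of these 60, 50 lay in adipocyte H3K9Ace and 36 in the longer macrophage PPARγ list. Neither count is given for all 253 autosomal PU.1 regions in the final adipocyte list, so neither can be called a trait of the class. Both final PPARγ lists met at 19 sites, a count not given for all PU.1 regions.

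Within the class, adipocyte marks were more frequent at sites with macrophage PPARγ than at sites without it. Of the 1115 unacetylated both-factor sites with longer-list PPARγ, 17.0% (14.9 to 19.4) were in adipocyte H3K9Ace and 11.5% (9.74 to 13.5) in the combined adipocyte PPARγ list. The 4535 without it had 11.4% (10.5 to 12.3) and 2.89% (2.44 to 3.42). For the 262 sites of the final macrophage list the shares were 20.6% and 21.4%. Longer-list PPARγ and adipocyte H3K9Ace were both more frequent near macrophage H3K9Ace, and these shares were not compared at equal distance from it. Neither adipocyte H3K9Ace nor PPARγ in the longer macrophage or combined adipocyte list was found at 3977 sites, 70.4% of the class. The same share is not given for all autosomal PU.1 regions, so it cannot be called a trait of the class. Most PU.1 regions lack each readout: 28.1% were in adipocyte H3K9Ace, 12.4% in the longer list and 3.93% in the combined list.

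By the rule the PU.1 and C/EBPβ regions overlap at these sites, which alone keeps their centres close and part of the PU.1 region covered. Their centres were a median of 39.5 bp apart (quartiles 18 and 73.5 bp), and at most 100 bp apart at 85.6% of the sites. The C/EBPβ region covered a median of 84.0% of the PU.1 region. Acetylated both-factor sites had a wider spacing, with a median of 51.5 bp (23 and 103.5 bp) and 73.8% within 100 bp. The PU.1 regions differed in width too, and spacing was not compared at equal width. They were a median of 278 bp wide (221 and 353 bp) at unacetylated both-factor sites, 329 bp (252 and 435 bp) at acetylated ones and 210 bp (185 and 262 bp) at unacetylated PU.1-alone sites. The C/EBPβ regions had medians of 281 bp and 339 bp at the unacetylated and acetylated both-factor sites. Classes were set by an overlap of at least 1 bp, which a wider region meets more easily. The rule therefore partly sets these widths, and how much of the order between classes it makes was not tested. More than 1 C/EBPβ region was met by 33 unacetylated sites (0.584%) and by 177 acetylated ones (2.38%).

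**Figure D4:**
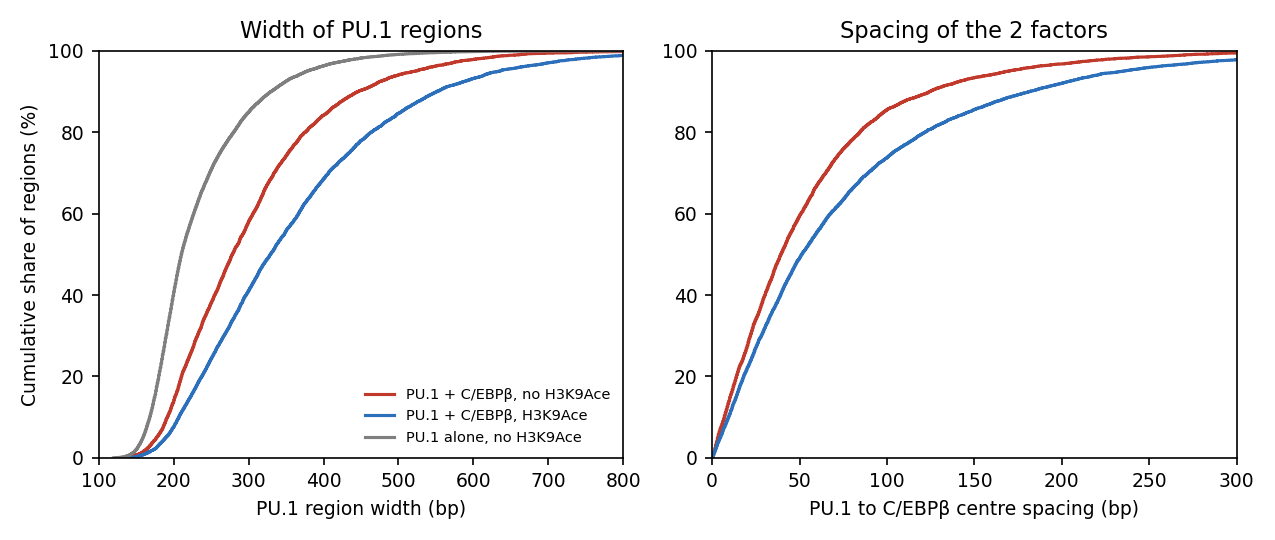
Cumulative share of regions (%) by PU.1 region width (bp, left) and by the distance between PU.1 and C/EBPβ centres (bp, right), for unacetylated both-factor sites (red), acetylated both-factor sites (blue) and unacetylated PU.1-alone sites (grey, left only). Median widths are 278, 329 and 210 bp, and median spacings 39.5 and 51.5 bp. Widths and spacings are partly set by the overlap rule.

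Wider unacetylated both-factor sites carried macrophage PPARγ more often, but not adipocyte H3K9Ace. From the narrowest to the widest quartile of PU.1 width, longer-list PPARγ lay at 11.6% (10.1 to 13.4), 15.8% (13.9 to 17.8), 21.3% (19.3 to 23.5) and 30.3% (27.9 to 32.7). Adipocyte H3K9Ace lay at 13.3%, 12.6%, 10.9% and 13.1%. A wider region has more room for an overlap, and the part of this in the PPARγ shares was not tested. Within the same range of widths, PU.1 regions over 399 bp, longer-list PPARγ was at 34.2% of 898 unacetylated and 43.3% of 2347 acetylated both-factor sites. At widths up to 236.75 bp it was at 11.5% of 1806 and 17.9% of 1464, so the rise with width was common to both classes. Adipocyte H3K9Ace at acetylated sites was 52.0% in the narrower range and 42.0% in the wider. By quartile of centre spacing, from closest to farthest, longer-list PPARγ was at 16.4%, 19.7%, 20.1% and 22.8% of the unacetylated sites.

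The widest unacetylated both-factor site was 1126 bp, on chromosome 1 at 185783595 to 185784721. It lay 0.129 kb from macrophage H3K9Ace and had PPARγ in the final macrophage list, with a fold of 9.38, and in the combined adipocyte list. Next in width were 172545639 to 172546606 of chromosome 1 (967 bp), 41892155 to 41893097 of chromosome 9 (942 bp), 14167475 to 14168371 of chromosome 2 (896 bp) and 93583836 to 93584730 of chromosome 5 (894 bp). None of the 5 lay in adipocyte H3K9Ace. Only the regions on chromosome 1 at 185783595 and on chromosome 2 were in the longer macrophage PPARγ list.

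Unacetylated both-factor sites often had other PU.1 regions nearby, though less often than acetylated ones. Another PU.1 centre lay within 5 kb of 3368 of them, 59.6% (58.3 to 60.9), close to the 58.3% of all autosomal PU.1 regions. The share was 76.7% (75.7 to 77.6) at acetylated both-factor sites (odds ratio 0.449, 0.416 to 0.485, adjusted p = 2.75e-96 by Fisher's exact test) and 45.3% (44.6 to 45.9) at unacetylated PU.1-alone sites (odds ratio 1.78, 1.68 to 1.89, adjusted p = 1.72e-81 by Fisher's exact test). For these 3368 sites the nearest PU.1 region was an unacetylated PU.1-alone site in 45.9% of cases, another unacetylated both-factor site in 25.7%, an acetylated both-factor site in 14.4% and an acetylated PU.1-alone site in 14.0%. Over all autosomal PU.1 regions these classes make up 46.5%, 12.4%, 16.3% and 24.8%. A nearest region of the same class was no trait of these sites alone. It was found at 37.8% of the 5696 acetylated both-factor sites with a neighbour within 5 kb. For unacetylated PU.1-alone sites it was 53.9% of 9569. Unacetylated both-factor sites with another PU.1 centre within 5 kb carried longer-list PPARγ in 23.5% of cases (22.1 to 24.9), and those without in 14.2% (12.9 to 15.7).

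Most unacetylated both-factor sites had no other site of the class close by, a share not given for other PU.1 classes. With successive centres at most 10 kb apart counted as a chain, 4009 sites (71.0%) were alone and 1641 (29.0%) were in chains of 2 or more. Chains of 4 or more numbered 28 and held 123 sites. Of all the sites, 189 shared their C/EBPβ region with another site of the class, so these are not independent. The largest chain had 7 sites over 29.2 kb on chromosome 10, from 98852025 to 98881245. The next had 6 sites over 33.6 kb on chromosome 12, from 100380655 to 100414221. In both chains every PU.1 region belonged to the class, 1 site had longer-list PPARγ, and none was in adipocyte H3K9Ace. Another 6 chains had 5 sites each. The first of these by position took 5 of the 6 PU.1 regions over 12.8 kb on chromosome 1, from 173497101 to 173509875, with final-list PPARγ at 1 of them.

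Across the autosomes the shares at unacetylated both-factor sites spanned a wider range for adipocyte H3K9Ace than for PPARγ, given here without a test. Longer-list PPARγ ranged from 11.6% on chromosome 13 to 24.3% on chromosome 16, with a median of 19.5%. Adipocyte H3K9Ace ranged from 5.27% on chromosome 1 to 21.8% on chromosome 6, with a median of 12.4%. For longer-list PPARγ the unacetylated both-factor sites were below the acetylated ones and above the unacetylated PU.1-alone sites on 19 of 19 autosomes. Their adipocyte H3K9Ace share was below that of acetylated both-factor sites on 19 of 19 as well.

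**Figure D5:**
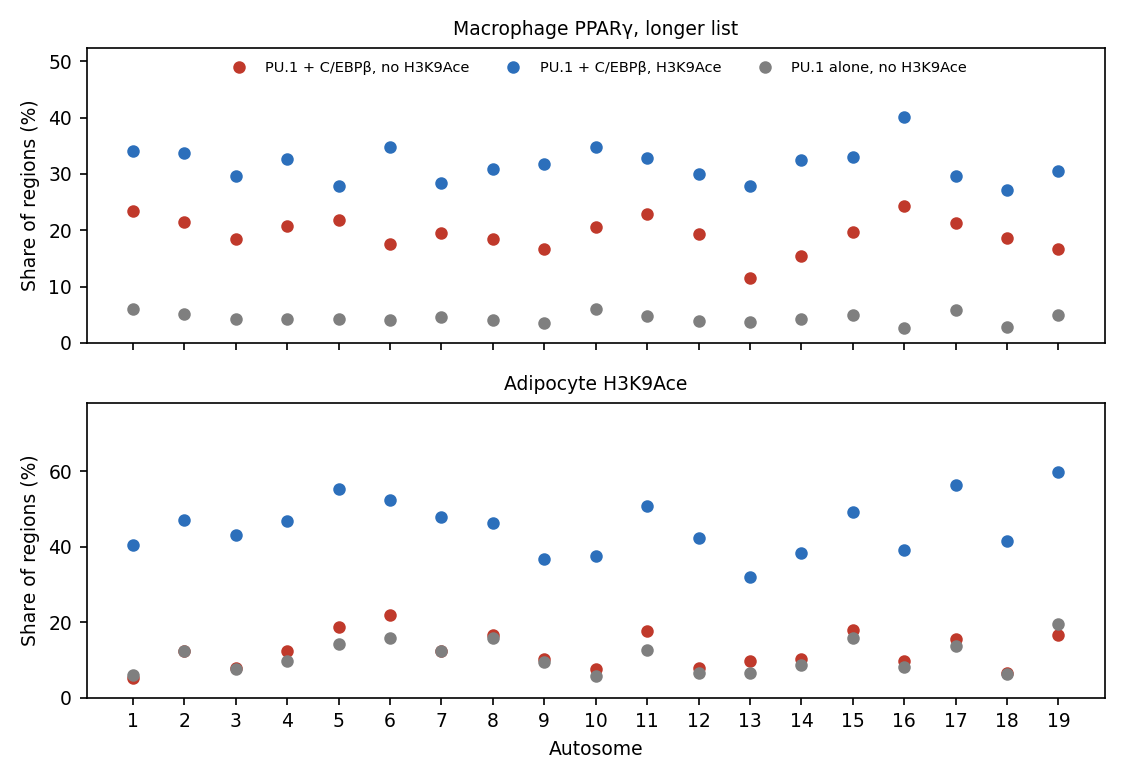
Share of regions (%) on each of the 19 autosomes in the longer macrophage PPARγ list (top) and in adipocyte H3K9Ace (bottom), for unacetylated both-factor sites (red), acetylated both-factor sites (blue) and unacetylated PU.1-alone sites (grey); each point is 1 chromosome. For PPARγ the red points lie between blue and grey on every autosome (11.6% to 24.3%), and for adipocyte H3K9Ace they lie near the grey ones.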

How the data were processed

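The authors mapped 36-bp reads to mm8 with ELAND, allowing 2 mismatches and keeping uniquely placed reads, per the labels' protocols. The sources used here do not state peak calling settings or the control. The final lists leave out masked areas of input bias, per the series' design text, and 0 of the 45485 PU.1 regions met a masked interval. The deposited lists give positions. The authors' PPARγ lists add a fold, a peak height (a signal, with no depth scaling stated) and a false discovery rate in percent, per the file headers. Depth is unknown. Groups follow the titles, since each record's description names PPARγ. Repeated rows were counted once. Regions were read as excluding their start base, so abutting regions do not overlap.

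The rule, classes and tests were chosen with earlier results of these data known. Overlap meant at least 1 bp. Shares have Wilson intervals. Class differences were tested with Fisher's exact test, 2-sided (scipy 1.17.1), with sample odds ratios, 95% intervals from the conditional likelihood, and p-values adjusted over 11 tests after Benjamini and Hochberg. Common odds ratios are Mantel-Haenszel estimates (statsmodels 0.14.6). The code was tested on simulated data. Alternatives changed the overlap needed, the margin around H3K9Ace, the PPARγ lists, the distances and the chromosomes included, kept 1 region per PU.1 chain, or stratified by width or distance. Their p-values were adjusted within each alternative. Named regions were the 8 with the highest PPARγ fold, the 5 farthest from macrophage H3K9Ace, the 5 widest and 3 chains with most sites, ties (6 chains of 5) taken by chromosome and start. No sequence was read, since no mm8 genome was used here.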

Additional observations from a re-analysis of the deposited data

How the results depend on the processing

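The 11 class comparisons were each recomputed under 6 to 8 changed settings, which gave 81 recomputed values in all. Of these, 80 kept the direction and the side of the threshold. The exception was adipocyte H3K9Ace against unacetylated PU.1-alone sites, whose odds ratio was 1.01 within bins of distance to macrophage H3K9Ace, an alternative chosen after seeing the data. Against acetylated both-factor sites the odds ratio ranged from 0.434 to 0.598 for final-list PPARγ, from 0.490 to 0.601 for longer-list PPARγ and from 0.138 to 0.170 for adipocyte H3K9Ace. Against unacetylated PU.1-alone sites it ranged from 3.47 to 6.60 and from 3.51 to 5.75 for the PPARγ lists, and from 1.33 to 1.58 for acetylation within a set distance. Keeping 1 PU.1 region per chain gave no value for neighbours within a set distance, because it removes them. No paired analysis was possible because each group holds 1 library. With depth unknown, a site missing from a list cannot be told apart from one below detection, and leaving out a replicate was not possible.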
